A study of Neurospora crassa with 8 samples.

Results

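The genes described here are those whose sense RNA in mycelia of *Neurospora crassa* stood high after 30 min of light and was back near its dark level after 120 min. They were chosen from the read counts themselves. A gene was taken when it had at least 50 reads in the 30 min library, when its level at 30 min was at least 2 times that in the dark, and when its level at 120 min was less than 1.3 times that in the dark. Levels are given as CPM, the reads of a gene divided by all reads counted on genes in that library and scaled to 1e+06. This gave 121 of 9733 counted genes. 1 gene that met the rule was left out by name.

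The libraries came from mycelia of strain 74-OR23-1VA in liquid culture at 25 °C. For the light series, *wt* cultures spent 1 day in light and 24 h in the dark, and were then given light of 100 μE for 0, 30, 60 or 120 min. Their 4 libraries keep the strand of each read and hold 9804779, 16587716, 21422091 and 9725970 gene reads in that order, so that 3 reads correspond to between 0.140 and 0.308 CPM. A further 3 libraries came from cultures that had grown in constant light for 48 h, of *wt* and of the knockout strains Δ*wc1* and Δ*wc2*, and were made with another kit. They hold 26210537, 22445139 and 22215526 gene reads, summed over exons, with 3 reads at 0.114 to 0.135 CPM. Their reads are taken as unstranded, so sense and antisense RNA cannot be told apart there. An eighth sample, a list of noncoding RNAs with pooled polysome values, was not used here.

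Each condition had 1 library. No test between conditions was therefore possible, and no p-value is given. Ratios of levels are printed with the exact (Clopper-Pearson) 95% interval, which covers counting error only and compares 2 libraries, not 2 conditions. In RNA from whole mycelia, fewer cells that express a gene and less RNA in each cell cannot be told apart.

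Light reaches gene expression in *Neurospora* through the white collar complex, in which the blue light receptor and transcription factor WC-1 acts together with its partner WC-2. After a light pulse, many target genes are transcribed within minutes, among them those for carotenoid synthesis, photoreceptors and conidiation. During continued light the response is damped again, which is called photoadaptation and depends on the small light receptor VVD. Genes that are induced early differ in how long they stay high. Those described here were chosen because they were back near the dark level at the last light time. They were not chosen for the speed of their decline.

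Of 7277 genes with at least 50 reads at 30 min, 374 (5.14%) stood at 2 times the dark level or above. Of these, 130 were still at 2 times the dark level or above at 120 min, and are called sustained here. A further 122 lay between 1.3 and 2 times the dark level at 120 min. Another 27 genes met both ratios with fewer than 50 reads at 30 min and were not described. The values next to the limits were close together. NCU05384, at 2.0010 times the dark level, and NCU00849, at 2.0151, were the members nearest to the limit at 30 min, whereas *csp-1* (NCU02713), at 1.9995, and NCU02765, at 1.9927, were left outside. At 120 min, NCU07921 (1.2968) and NCU02651 (1.2828) were the last inside, and NCU02928 (1.3078) and NCU08674 (1.3095) the first outside. The members with the fewest reads at 30 min were NCU11309 with 52, and NCU08447 and NCU09913 with 58 each, and the genes just below the minimum were NCU06792 with 44 and NCU05872 with 35.

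Over the 121 genes, the median level went from 31.4 CPM in darkness to 89.8 CPM after 30 min, and through 55.0 CPM after 60 min to 35.2 CPM after 120 min. Together they took 0.909% of all gene reads in darkness, then 2.27%, 1.53% and 0.894% at the 3 light times. The 30 min to dark ratio ran from 2.00 to 9.13 with a median of 2.49. It was at least 4 for 16 genes, from 3 to below 4 for 18 and below 3 for the other 87. These values, and those at 120 min, chose the genes and are given as a description. The lower bound of the counting interval reached 2 for 73 of the 121.

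**Figure D1:**
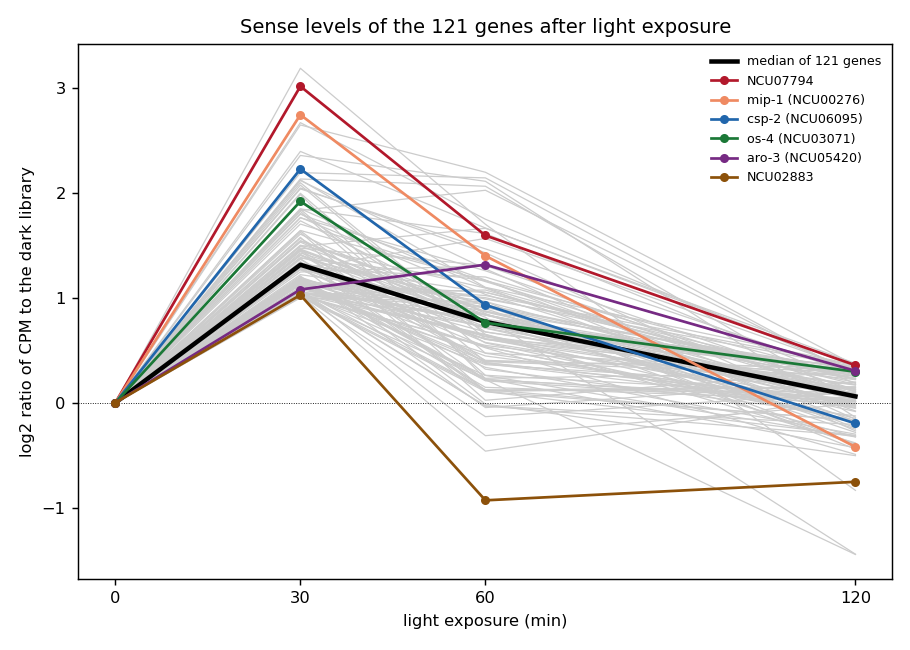
Level of the 121 genes relative to the dark library (log2 ratio of CPM, vertical) against minutes of light (horizontal), with 1 library per time; grey lines are single genes, the black line is the median, and 6 genes are coloured. Most lines peak at 30 min and lie lower at 60 min, while *aro-3* is highest at 60 min and NCU02883 is below its dark level by then.

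The libraries also differed in ways that run alongside this pattern. The 30 and 60 min libraries were the deeper ones, and the dark and 120 min libraries the shallower. Over all 7277 genes the median log2 ratio to the dark was −0.18 both after 30 and after 60 min, and 0.03 after 120 min. With TMM factors, which align the bulk of the genes between libraries, 188 genes met the rule, and with median-of-ratios factors 184 did, and in both cases all 121 genes described here were among them. The share of reads that fell on no gene was 9.03% to 14.5%. The part of depth in the pattern was not tested.

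Several of the genes with a symbol encode transcription factors. *csp-2* (NCU06095), a transcription factor of the grainyhead type needed for the separation of conidia, had 865 reads in darkness and 6864, 3608 and 748 reads after 30, 60 and 120 min of light. The 30 min level was 4.69 times the dark level (95% interval 4.37 to 5.04), at 60 min the ratio was 1.91 and at 120 min 0.872. It thus ended below where it had started. *asl-1* (NCU01345), which encodes a transcription factor of the bZIP type, gave 538, 2633, 1974 and 481 reads in the same order. Its ratios were 2.89, 1.68 and 0.901, the same shape at a smaller height. *vad-2* (NCU02094), a transcription factor gene named for its role in vegetative and asexual development, gave 435, 1854, 1887 and 546 reads. With ratios of 2.52, 1.99 and 1.27, it kept more of its level at 60 min than *csp-2* or *asl-1* did.

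Signalling genes were present as well. *os-4* (NCU03071) encodes the kinase at the top of the osmosensing MAP kinase cascade, and gave 423, 2711, 1568 and 515 reads. Its 30 min level was 3.79 times the dark level (3.42 to 4.21), and its 60 min level 1.697 times. The gene next to it, NCU03072, followed with 3.59 and 1.31. *stk-52* (NCU08767), a gene for a serine/threonine kinase, had 260, 900, 1197 and 273 reads. Its ratios of 2.05 at 30 min and 2.11 at 60 min could not be told apart by counting error, since the 60 min level was 1.03 times that at 30 min (0.944 to 1.12).

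Several named genes act in organelles and in transport. *mip-1* (NCU00276), named for the mitochondrial DNA polymerase known from yeast, gave 131, 1488, 756 and 97 reads. It had the largest 30 min ratio of the genes with a symbol, 6.71 (5.61 to 8.09), and was at 0.746 of the dark level at 120 min. *cax* (NCU07075), which encodes a calcium/proton exchanger, had 752, 3424, 3060 and 613 reads and a 30 min ratio of 2.69. *vma-11* (NCU00667), for a membrane subunit of the vacuolar ATPase, had 1755, 6806, 5925 and 1836 reads and a ratio of 2.29. *tca-17* (NCU00720), named after a yeast factor of vesicle traffic, had 1472, 6780, 3741 and 1502 reads. Its ratio was 2.72 at 30 min but only 1.16 at 60 min, so that most of the difference had gone within 30 min.

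The remaining symbols belong to enzymes, apart from *csb*, for which no role is given here. *cat-1* (NCU08791), a catalase that breaks down hydrogen peroxide, was among the most abundant of all members, with 6668, 24163, 24743 and 5783 reads. Its ratios were 2.14 (2.08 to 2.20), 1.70 and 0.874. *lyz* (NCU00701), named for lysozyme, gave 330, 1942, 1623 and 277 reads and a 30 min ratio of 3.48. The glycoside hydrolase genes *gh47-3* (NCU01059), with 46, 320, 278 and 55 reads, and *gh76-5* (NCU09937), with 99, 378, 250 and 97, were low in all 4 libraries. *aro-3* (NCU05420), a gene of aromatic amino acid synthesis, had 921, 3294, 5014 and 1128 reads. It was 2.11 times the dark level at 30 min and 2.49 times at 60 min, which makes it one of the few members with a later peak. *csb* (NCU07837) had 207, 1845, 1436 and 261 reads and a 30 min ratio of 5.27 (4.56 to 6.11). A symbol was available for 15 of the 121 (12.4%), close to the 11.4% among all counted genes.

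**Figure D2:**
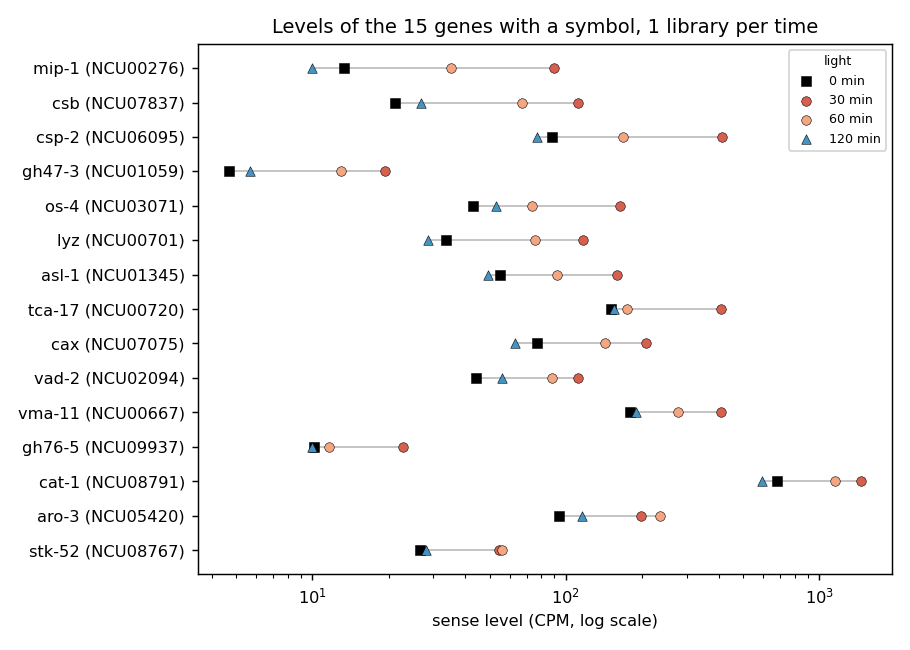
Sense level in CPM (horizontal, log scale) of the 15 members with a gene symbol, ordered by their 30 min to dark ratio, with 1 point for each of the 4 libraries of the light series. The dark and 120 min points of each gene lie close together at the low end; the 30 min point is highest for all but *aro-3* and *stk-52*.

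The members with the largest ratios mostly had no symbol. NCU07794 gave 299 reads in darkness and 4099, 1974 and 380 after light, a 30 min ratio of 8.10 (7.20 to 9.14). NCU03647 followed with 343, 3698, 2522 and 419 reads and a ratio of 6.37. NCU10011 gave 596, 6328, 5978 and 757 reads and a ratio of 6.28. All 3 stood above 3 times the dark level at 60 min, and NCU10011 had the highest 60 min ratio of all members, 4.59. NCU04641 (181, 1571, 1710 and 163 reads), NCU03205 (463, 3587, 4474 and 548) and NCU02651 (455, 3360, 2132 and 579) reached 5.13, 4.58 and 4.36 at 30 min. NCU01423, with 17, 125, 90 and 14 reads, reached 4.35. The highest ratio of all, 9.13 for NCU06427, rested on 9 dark reads against 139, and its interval reached from 4.67 to 20.38.

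By level at 30 min, NCU05395 was far above the rest, with 20047, 70115, 52445 and 15861 reads and 4227 CPM at 30 min. *cat-1* followed with 1457 CPM, then NCU01422 with 1134, NCU09715 with 790.3 and NCU05041 with 723.7. Per kilobase of gene length, NCU05395 stood at 3885 CPM per kb, NCU01422 at 690.0, *cat-1* at 497.0, NCU09715 at 305.2 and NCU05041 at 153.3. The lowest level of a member at 30 min was 3.13 CPM, that of NCU11309.

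The 60 min library was not used to choose the genes, but both values it was compared with, in the dark and at 30 min, were. At 60 min, 34 of the 121 (28.1%) were still at 2 times the dark level or above, against 4.95% of the 7277 genes and 126 of the 130 sustained genes. Another 59 lay between 1.3 and 2 times, and 28 below 1.3 times. From 30 to 60 min the level of the 121 genes changed by a median factor of 0.646, whereas the median was 1.02 for the sustained genes and 0.997 for all genes. This factor is a description, since the members had been chosen for a high 30 min value and were separated from the sustained genes by their value at 120 min. That limit is set against the dark level, so a sustained gene can also fall steeply. The sustained gene *cao-2* (NCU11424) went from 24.5 times the dark level at 30 min to 4.35 times at 120 min. Its factor from 30 to 60 min was 0.468. How many sustained genes fell in this way was not counted. For 106 of the 121 the interval of this factor lay below 1. The share of all genes with such an interval was not calculated. The count of 34 became 54 with TMM or median-of-ratios factors.

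The speed of the decline differed between members. NCU02883 had 432, 1490, 495 and 254 reads, so that its level went from 2.04 times the dark level at 30 min to 0.524 times at 60 min. Its 60 min level was 0.257 of that at 30 min (0.232 to 0.285), the lowest factor among the members. It was 1 of 8 genes below their dark level by 60 min. At the other end, 6 genes were higher at 60 min than at 30 min, and for 4 of them the interval lay above 1. These were NCU02906 (698, 2864, 4519 and 862 reads, a factor of 1.22), *aro-3* (1.18), NCU01870 (290, 1750, 2582 and 346 reads, 1.14) and NCU07921 (604, 2872, 4182 and 777 reads, 1.13). They were back near the dark level at 120 min as the rule requires, with ratios of 1.20 to 1.297. The shares over all genes for these counts were not calculated. Over the 7277 genes the median log2 ratio to the dark at 60 min was −0.18, and the median factor from 30 to 60 min was 0.997. Since the members were chosen for a high 30 min value, the counts are not read as a trait.

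At 120 min, 48 of the 121 genes were below their dark level, 19 of them with an interval below 1, and 30 had an interval above 1. The rule capped this ratio, and the shares over all genes were not calculated. Over the 7277 genes the median log2 ratio at 120 min was 0.03. These counts are therefore not read as a trait of the members. The lowest were NCU00849 (22, 75, 56 and 8 reads) and NCU03213 (129, 603, 496 and 47 reads), both at 0.367 of the dark level. Both genes were lower after 120 min of light than before it, but NCU00849 rests on few reads.

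The genes outside the 121 whose profile over the 4 times was most like the mean profile of the members (Pearson r of log2 CPM over 4 libraries) were NCU03728 (r = 0.9999), NCU02996 (0.9998) and NCU00743 (0.9998). Their 30 min ratios were only 1.20, 1.29 and 1.65. A correlation over 4 points compares shape and not height.

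Most genes in a list of 25 known light response genes were no members, and *csp-1* fell just outside at 1.9995 times the dark level. Only *csp-2* was a member, while 121 of all 9733 counted genes were. Of the list, 16 were at 2 times the dark level or above after 30 min, against 5.14% of 7277 genes. After 60 min it was 14, and after 120 min 13. The blue light receptor gene *vvd* (NCU03967), for example, had 273, 51223, 52377 and 19667 reads, 111 times the dark level at 30 min and 72.6 times at 120 min. In a list of 11 heat shock and oxidative stress genes, 1 was at 2 times the dark level or above at 30 min, which was *cat-1*, none was at 60 min, and 1 was at 120 min, the superoxide dismutase gene *sod-1* (NCU02133) at 2.00. The median 30 min ratio of the list was 1.07. Its values ran from 0.538 for the chaperone gene *hsp80* (NCU04142) to 1.71 for *hsf-2* (NCU08480) and 2.14 for *cat-1*.

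Antisense reads at the same genes were counted separately and played no part in the choice. At least 10 antisense reads at 30 min were present for 50 of the 121 genes, and 16 had none. Of the 50, 28 (56%) had an antisense level at least 2 times that in the dark, against 21.7% of 2780 genes with as many antisense reads. Among the sustained genes it was 50 of 84. The minimum was set on the 30 min library alone, which favours a high 30 min level in members, sustained genes and all genes alike. These shares are therefore a description. The counts were small, however. In 19 of the 28 the antisense reads were below 1% of the sense reads at 30 min, and 11 had 0 or 1 antisense read in the dark. With a minimum of 50 antisense reads, 5 genes remained at 2 times the dark level or above. At this minimum no share was calculated for the members or for all genes, so the 5 cannot be set against a background. Sense reads that are assigned to the wrong strand would scale with the sense level, and their share was not tested.

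Over all 121 genes, antisense reads amounted to 1.97% of the sense reads in darkness, and to 0.956%, 1.26% and 2.31% at the 3 light times. Over all genes the share stayed between 1.91% and 2.303%. The share among the members is set in part by the choice, since its denominator is the sense level for which they were chosen.

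At 3 of the 28 genes the antisense reads exceeded 10% of the sense reads, and at 2 of these they were numerous. The other, NCU10894, had 6, 22, 36 and 7. On the sense strand, NCU08697 had 24, 83, 82 and 19 reads, and on the antisense strand 1, 117, 137 and 32. The antisense level at 30 min was 69.2 times that in the dark, with an interval from 12.2 upward to 2755 because of the single dark read. It exceeded the sense level at 30, 60 and 120 min. This gene lies beside *bli-4* (NCU08699), a blue light inducible gene, whose sense reads were 109, 58133, 64549 and 13416. NCU09305 gave 34, 334, 269 and 77 antisense reads beside 167, 588, 573 and 127 on the sense strand, an antisense ratio of 5.81 (4.07 to 8.53) at 30 min. It lies beside *cao-2* (NCU11424), a gene of carotenoid cleavage, with 429, 17784, 10753 and 1850 sense reads. In both cases, antisense reads and the reads of the neighbour were high in the same libraries, and whether the annotated ends of the neighbours overlap was not tested.

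NCU10049 and NCU01812 both had 1 antisense read in the dark and 23 at 30 min, a ratio of 13.6 with an interval from 2.21 to 560. Their sense reads were 74, 334, 214 and 90, and 61, 372, 285 and 65. In both genes the sense level was highest at 30 min. On the antisense strand, NCU10049 had 28 reads at 60 min and 13 at 120 min, NCU01812 had 32 and 5, and the 120 min library held fewer gene reads than the 60 min library. A different picture was given by NCU08447, with 94, 190, 208 and 109 antisense reads beside 11, 58, 30 and 10 on the sense strand. Here the antisense strand had more reads than the sense strand in every library, and its 30 min ratio was 1.19 (0.928 to 1.55). In all, 4 members had more antisense than sense reads at 30 min, and 5 in the dark. How often this held over all genes was not counted, so neither number is read as a trait of the members.

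**Figure D3:**
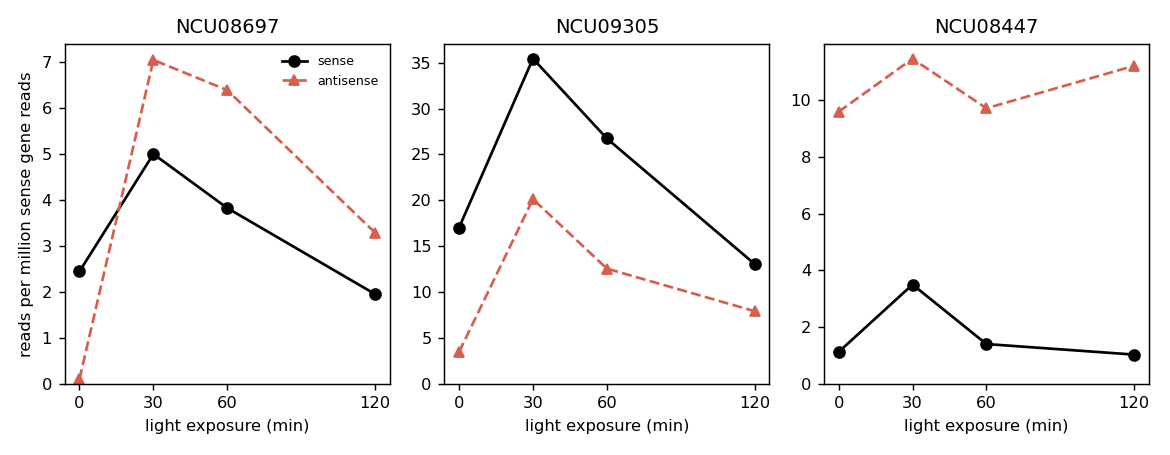
Sense (black circles) and antisense (red triangles) reads per 1e+06 sense gene reads (vertical) against minutes of light (horizontal) for 3 members, with 1 library per time. Both strands of NCU08697 and NCU09305 are highest at 30 min, whereas at NCU08447 the antisense level stays above the sense level and changes little.

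The constant light libraries show the same genes in another state, after 48 h of light, in *wt* and in each of the 2 knockouts. The library labelled Δ*wc2* had 141 reads on *wc-2* (NCU00902) against 605 in *wt* and 922 in Δ*wc1*. On the exon with most *wt* reads, the counts were 3, 303 and 320 in that order. On the other exons they were 53, 230 and 474, then 54, 70 and 127, and then 31, 2 and 1. The reads were thus low in Δ*wc2* over part of the gene only. The 2 knockouts were compared with the same *wt* library, so their values are given side by side and not as independent results. Over all genes the median log2 ratio to *wt* was 0.23 for Δ*wc1* and 0.18 for Δ*wc2*, and the 5 most abundant genes took 24.2% to 30.3% of the reads.

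In constant light, the 121 genes took 0.666% of the reads in *wt*, 0.791% in Δ*wc1* and 0.657% in Δ*wc2*. Their median ratio to *wt* was 1.01 in Δ*wc1* (120 genes with at least 20 reads over both libraries, quartiles 0.678 and 1.39) and 0.931 in Δ*wc2* (121 genes, 0.604 and 1.28). The medians of all genes were 1.17 and 1.13. TMM factors shift all genes alike, and with them the members had medians of 0.871 and 0.827 while the all-gene median log2 ratio was 0.01 and 0.00, so that the median of the members lay below that of all genes under either scaling. For the sustained genes they were 0.441 and 0.487 times *wt*.

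Counted by a limit, 20 of the 120 genes (16.7%) were below 0.5 times *wt* in Δ*wc1*, against 7.35% of 8479 genes. In Δ*wc2* it was 17 of 121 (14.0%), against 7.77% of 8428 genes. Of the sustained genes, 71 of 128 (55.5%) and 66 of 127 (52.0%) were below that limit. Above 2 times *wt* were 15 members in Δ*wc1* (12.5%, against 15.1% of all genes) and 10 in Δ*wc2* (8.26%, against 10.2%). With TMM factors, 26 members were below the limit in each knockout, against 10.2% of all genes in Δ*wc1* and 10.3% in Δ*wc2*, while 13 and 3 were above 2 times *wt*, against 10.6% and 7.57% of all genes. The shares of low genes were above those of all genes and below those of the sustained genes. The conidiation genes *eas* (NCU08457) and *con-10* (NCU07325) were low in the same libraries, at 0.0149 and 0.0545 of *wt* in Δ*wc1* and 0.0284 and 0.0839 in Δ*wc2*, and their part in the differences was not tested.

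**Figure D4:**
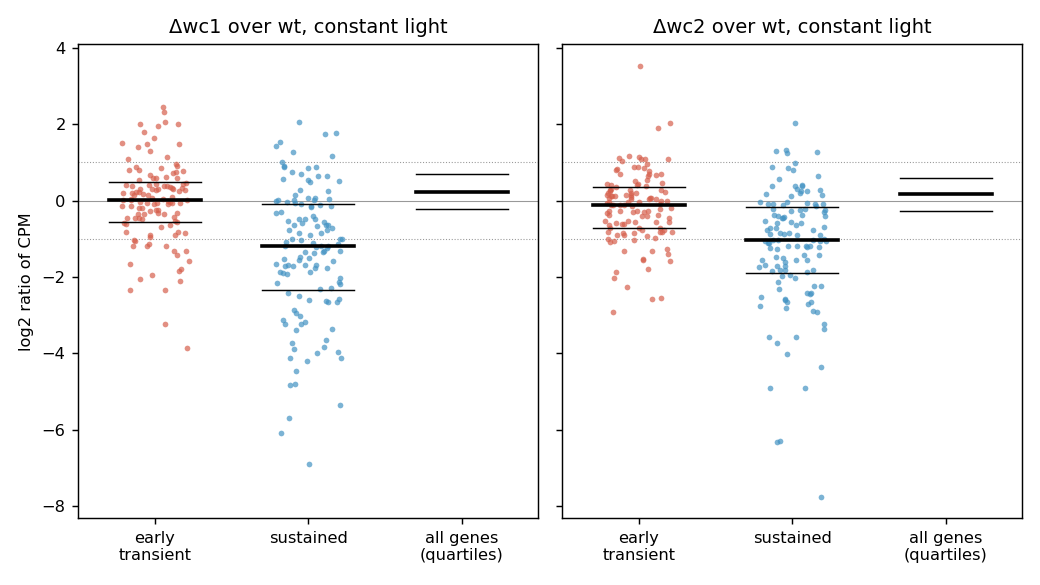
Log2 ratio of CPM in Δ*wc1* (left) and Δ*wc2* (right) over the same *wt* library in constant light (vertical); each point is a gene with at least 20 reads over both libraries, thick lines are medians and thin lines quartiles, and for all genes only these lines are drawn. The 121 early transient genes centre near 0, with medians of 1.01 and 0.931 times *wt*, whereas the sustained genes centre lower, with medians of 0.441 and 0.487 times *wt*.

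The members were also split by their level at 60 min. Of those at 2 times the dark level or above at 60 min, 9 of 33 (27.3%) were below 0.5 times *wt* in Δ*wc1* and 9 of 34 (26.5%) in Δ*wc2*. For the 59 members between 1.3 and 2 times, it was 9 (15.3%) and 5 (8.47%), and for the 28 members below 1.3 times, 2 (7.14%) and 3 (10.7%). This split was made after the values were seen and was not tested. By size, 16 members had a 30 min ratio of at least 4. Of these, 2 were below 0.5 times *wt* in Δ*wc1* and 3 in Δ*wc2*. Among all genes with at least 20 reads over both libraries, the shares were 7.35% and 7.77%. No minimum of reads was applied to the 16 members. The 2 in Δ*wc1* include NCU06427, with 14 reads in *wt* and 0 in the knockout.

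The lowest of the members with at least 100 reads was NCU01108, with 357 reads in *wt*, 21 in Δ*wc1* and 40 in Δ*wc2*. Its ratios were 0.0687 (0.0420 to 0.107) and 0.132 (0.0929 to 0.184). NCU07921 came next, with 8022, 734 and 1137 reads and ratios of 0.107 and 0.167, on both of its exons. NCU01870 had 534, 111 and 111 reads (0.243 and 0.245), and NCU02906 had 1032, 173 and 302 (0.196 and 0.345). NCU07921, NCU01870 and NCU02906 were among the 6 members that were higher at 60 min than at 30 min in the light series. Of these 6, 3 were below 0.5 times *wt* in each knockout. Above 2 times *wt* were 2 of the 6 in Δ*wc1* and 1 in Δ*wc2*. The fourth gene whose factor from 30 to 60 min had an interval above 1, *aro-3*, was on the opposite side. It had 1211, 2951 and 2208 reads and ratios of 2.85 (2.66 to 3.04) and 2.15 (2.00 to 2.31).

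NCU09115, with 2115 reads in *wt* and 420 in Δ*wc1*, was at 0.232 there. In Δ*wc2*, NCU06847 (501 reads in *wt* and 72 in the knockout) was at 0.170, and NCU07337 (310 and 72) at 0.274. Of the genes with a symbol, *lyz* had 879, 299 and 438 reads, with ratios of 0.397 (0.347 to 0.453) and 0.588 (0.523 to 0.660). *cat-1* had 5736, 2141 and 2586 reads, with ratios of 0.436 and 0.532. *csb* had 259, 159 and 88 reads, with ratios of 0.717 and 0.401 (0.311 to 0.512). All 3 were lower in both knockouts than in *wt*.

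Other members were higher in the knockouts than in *wt*. NCU05735 had 789 reads in *wt*, 3362 in Δ*wc1* and 7783 in Δ*wc2*, 4.98 (4.60 to 5.38) and 11.6 (10.8 to 12.5) times *wt*. All 3 of its exons were higher, by 4.81 to 5.99 times and by 10.2 to 16.2 times. NCU04097 had 2262, 8153 and 7217 reads, or 4.21 and 3.76 times *wt*. NCU08168 was at 5.45 times *wt* in Δ*wc1* (449 and 2094 reads), and NCU06332 at 4.07 times in Δ*wc2* (316 and 1089 reads). *stk-52* had 226, 748 and 350 reads (3.86 and 1.83 times *wt*), and *vad-2* 214, 514 and 328 (2.80 and 1.81).

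The regulators with the largest light response lay closer to *wt*. *csp-2* had 1787, 2298 and 1684 reads and ratios of 1.502 (1.41 to 1.598) and 1.11 (1.04 to 1.19). *os-4* had 276, 315 and 255 reads and ratios of 1.33 and 1.09, and *asl-1* 1170, 962 and 767 reads and 0.960 and 0.773. *mip-1*, with 59, 61 and 65 reads, had ratios of 1.21 (0.830 to 1.76) and 1.2998 (0.900 to 1.88). Its intervals include 1, so that a difference was not detectable at this depth. *vma-11* had 4333, 3806 and 3576 reads and ratios of 1.03 and 0.974. *cax* was at 1.07 times *wt* in Δ*wc1* but at 2.24 times in Δ*wc2*, and *tca-17* at 0.842 and 0.681 times. NCU07794, the strongest member in the light series after NCU06427, was at 1.35 and 1.72 times *wt*. NCU06427 itself had 14 reads in *wt*, 0 in Δ*wc1* and 6 in Δ*wc2*, too few for a comparison.

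Position in the genome was not used by the rule. The RefSeq annotation of NC12 served here only for gene names, lengths and neighbours. NC12 is a later assembly than NC10, to which the light series was mapped. Of the 121 genes, 116 were found in this annotation. Of these, 23 (19.8%) had another member as a direct neighbour, whereas 204 of 9098 other genes (2.24%) had a member beside them. The 23 formed 12 neighbouring pairs, among them a run of 3 genes, NCU04451, NCU10500 and NCU04450. How reads that fall on overlapping neighbours were counted is not given in the sources used here, and their part was not tested.

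Within pairs, the ratios were alike in some cases and not in others. NCU01058 and *gh47-3* were at 4.14 and 4.11 times the dark level at 30 min, and NCU02123 and NCU02122 at 2.28 and 2.31. NCU08167 (687, 3870, 2705 and 516 reads) and NCU08168 (761, 3817, 2469 and 671 reads) were at 3.33 and 2.96. In constant light this last pair was also alike, at 4.03 and 5.45 times *wt* in Δ*wc1* and at 2.12 and 1.96 in Δ*wc2*. By contrast, NCU07794 at 8.10 lay beside NCU07793 at 2.09, and NCU03205 at 4.58 beside NCU03204 at 2.24. In constant light NCU03205 was at 0.451 times *wt* in Δ*wc1* and NCU03204 at 1.73.

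**Figure D5:**
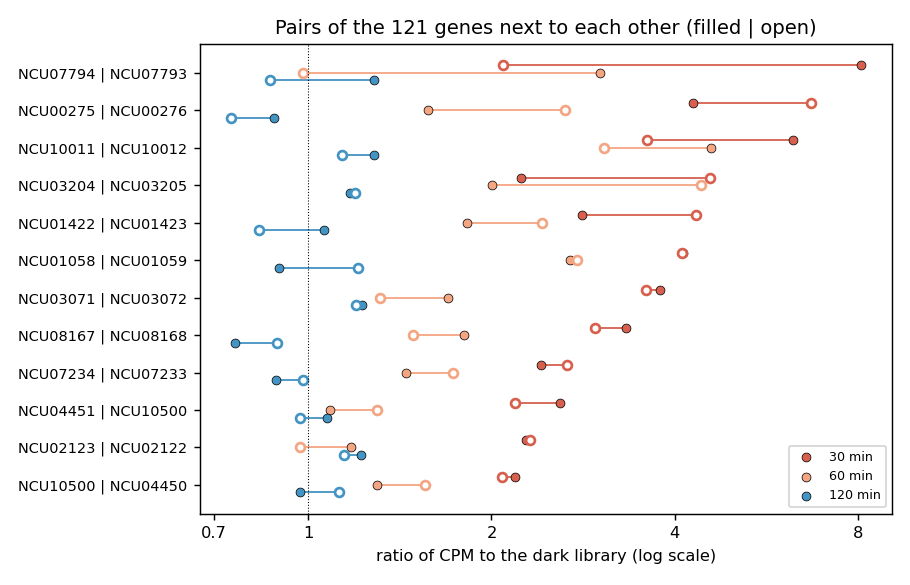
Ratio of CPM to the dark library (horizontal, log scale) at 30, 60 and 120 min for the 12 pairs of members that are direct neighbours (vertical); the filled point is the first gene of the pair and the open point the second. Pairs such as NCU01058 and NCU01059 (*gh47-3*) lie on top of each other at 30 min, whereas NCU07794 and NCU07793 are far apart.

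Members also lay beside light-induced genes that were not members. Of 163 such neighbours with at least 50 reads at 30 min, 19 (11.7%) were at 2 times the dark level or above, compared with 239 of all 6928 genes outside the members (3.45%), and 17 members had such a neighbour. The median 30 min ratio of these neighbours was 1.02, against 0.878 for all genes outside the members. The neighbours with the largest ratios were *bli-4*, at 315 times the dark level beside NCU08697, NCU10063 at 72.6 times beside NCU09841, and *mig-3* (NCU04452) at 28.7 times beside NCU04451. NCU01107, beside NCU01108, had 18838, 75667, 133776 and 30953 reads, and like NCU01108 it was low in the knockouts, at 0.161 and 0.335 times *wt*. Other neighbours were unlike their member. In Δ*wc1*, NCU09116 was at 4.91 times *wt* beside NCU09115 at 0.232, and NCU05069 at 0.104 beside NCU05068 at 1.75. How many were alike was not counted.

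Members were found on all 7 chromosomes, 34 on chromosome I, 12 on II, 12 on III, 11 on IV, 27 on V, 13 on VI and 7 on VII. The share of annotated genes ran from 0.709% on chromosome VII to 1.79% on chromosome V. Gene structure was near that of all genes. The median was 2 exons in both, 25 members (20.7%) had a single exon against 20.8% of all genes, and the median gene length was 2269 bp against 2185 bp.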

How the data were processed

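For the light series, the authors mapped reads to the NC10 genome with Bowtie 2.1.0, with up to 3 mismatches, and deposited raw read counts per gene, made with HTSeq, in separate files for each strand. For the constant light libraries, the deposited raw counts are per exon and were summed per gene. How the reads of the constant light libraries were mapped is not given in the sources used here. Lines that name no gene were left out. On the sense strand, reads on no gene were 9.03% to 14.5% of all reads and non-unique alignments 2.99% to 6.70%.

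CPM was calculated from the sum of gene reads per library. Antisense CPM used the same sense sum. Ratios have conditional binomial 95% intervals (Python 3.11.15, scipy 1.17.1). No test was run, since each condition has 1 library. Nothing in the labels gives separate cultures.

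The members and lists were chosen with earlier results of these data known. Genes named are members with a symbol, the 10 largest 30 min ratios with at least 10 dark reads, the 5 highest levels at 30 min, the 5 lowest and 3 highest ratios in each knockout with at least 100 reads, the 3 largest antisense ratios, the 2 genes on each side of each limit and the 3 most similar profiles. Other genes were named after their values were seen. The gene deleted in Δ*wc1* is not reported here. Alternatives concerned the scaling (library totals, TMM factors from edgeR 4.0.16 in R 4.3.3, median-of-ratios), the minimum counts and the limits. Names, lengths and neighbours came from RefSeq (NC12), which held 9215 of the 9733 genes.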

Additional observations from a re-analysis of the deposited data

Results flagged for a closer look

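NCU00717 stood out because it was on opposite sides of *wt* in the 2 knockouts in constant light by more than 1.5 times each, with intervals that exclude 1 on either side. For 4 other members the intervals also lay on opposite sides of 1, but at least 1 of their ratios was within 1.5 times of *wt*. With 260 reads in *wt*, 356 in Δ*wc1* and 145 in Δ*wc2*, its ratios were 1.6 and 0.658. The difference between the knockouts was not tested, and both ratios share the *wt* library.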

How the results depend on the processing

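With 1 library per condition, no replicate could be left out. No paired analysis was possible because each condition has 1 library. Of 37 alternatives, 22 stayed within 1.5 times the count given in the report and 15 did not. The number of early transient genes (121) became 188 with TMM factors, 184 with median-of-ratios factors, 322 with a 30 min ratio of at least 1.5, 34 with at least 3, 48 with a 120 min ratio below 1.0, and 73 where the lower bound of the 30 min ratio had to reach 2. The 34 members at 2 times the dark level at 60 min became 54 with TMM factors, 54 with median-of-ratios factors and 17 by the lower bound. In Δ*wc2*, the 17 members below 0.5 times *wt* became 26 with either set of factors, and the 10 above 2 times *wt* became 3 with either set and 6 where the interval had to lie beyond 2-fold. The 28 members with raised antisense levels became 5 with at least 50 antisense reads. TMM factors moved the all-gene median log2 ratio in constant light from 0.23 to 0.01 (Δ*wc1*) and from 0.18 to 0.00 (Δ*wc2*), and the medians of the members to 0.871 and 0.827 times *wt*. The planned counts of promoter motifs, of the same window cut at the gene start and of functional groups were not run. Genes with few reads, such as NCU06427, are limited by depth.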
